A study of Mus musculus with 47 samples.

Results

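The odorant-binding lipocalins of the mouse nose were followed in the olfactory epithelium from birth to postnatal day 21 (P21). The members were 10 listed gene names, looked up by symbol in the deposited expression table. Lcn13 and Lcn14 are RefSeq synonyms of Obp2a and Obp2b, so the list resolved to 8 genes (Lcn3, Lcn4, Lcn11, Obp1a, Obp1b, Obp2a, Obp2b and Mup4) of 54532 in the table. All 8 passed the filter on low counts, which kept 19927 genes.

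Lipocalins are small secreted proteins folded into a barrel with a pocket that holds hydrophobic molecules. In the nose they are products of glands in the mucosa and are released into the mucus, where odorants and pheromones dissolve before they reach the receptors of sensory neurons. Obp1a, Obp1b, Obp2a and Obp2b encode odorant-binding proteins. Lcn3 and Lcn4 encode vomeronasal secretory proteins, named after the organ of pheromone detection, and Mup4 encodes a major urinary protein, a family of pheromone carriers. Lcn11 is a further lipocalin gene of the same chromosome 2 cluster.

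Polyadenylated RNA was sequenced at 7 ages (P0, P3, P5, P7, P10, P14, P21) from wild-type mice (strain label C57BL/6J, here WT) and from mice with the strain label OIVT;Kir2.1 (here Kir). Kir2.1, the product of Kcnj2, is a potassium channel that lowers the excitability of neurons, and the labels name neither the promoter that drives it nor the cells that carry it. Each genotype had 4 libraries at P0 and at P7 and 3 at P3, P5, P14 and P21; at P10 WT had 3 and Kir 4. No treatment is labelled, and separate animals are not stated, so p-values measure the spread between libraries, which may be technical.

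The 47 libraries held 8107547 to 30385151 gene counts. Omp, which marks mature sensory neurons, stood at 299.8 to 2604 CPM (counts scaled to library size) in WT and 164 to 1934 CPM in Kir. Kcnj2 stood at 36.8 to 104 CPM in WT and 132 to 1648 CPM in Kir, and 5 Kir libraries were at 238 CPM or below (P3 replicate 3, P7 replicates 1 and 4, P21 replicates 1 and 2). The title of WT P0 replicate 3 gives P0, its stage label P3; it was placed at P0, where the design text counts 4 WT libraries. The Y-linked gene Ddx3y was at 10.5 to 26.5 TPM, the length-scaled level of the deposited table, in 19 libraries, where Xist was at 0 to 0.51 TPM, and at 0 to 0.08 TPM in the other 28 libraries, where Xist was at 58.7 to 248 TPM. These classes were uneven between groups: all 3 WT P21 libraries had Ddx3y, and all 3 Kir P3 and all 4 Kir P10 libraries had Xist.

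Of the 8 genes, 4 lie within 80.2 kb on the plus strand of chromosome 2, and their order is Obp2a, Obp2b, Lcn3 and Lcn11 (GENCODE M21 on GRCm38: Obp2a chr2:25700043-25703326, Obp2b chr2:25737009-25740097, Lcn3 chr2:25765569-25768099, Lcn11 chr2:25777017-25780279). Lcn4 lies farther along the same chromosome on the minus strand, at chr2:26667674-26671282. Obp1a (minus strand, chrX:78085505-78091374) and Obp1b (plus strand, chrX:78186777-78192292) lie within 106.8 kb on the X chromosome, and Mup4 is on the minus strand of chromosome 4, at chr4:59956804-59960710. The longest annotated transcript of each gene has 7 exons, except that of Lcn11, which has 6.

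The 70 bases before the most upstream annotated start are shown for the 7 genes on chromosomes 2 and X, to show how alike the starts of these related genes are; their expression came on at different ages. Capitals mark TATAAA, the letters of a TATA box. The sequences are from RefSeq, build GRCm38.p6, each 5′ to 3′ on the gene's own strand.
Obp2a (chr2:25699973-25700042): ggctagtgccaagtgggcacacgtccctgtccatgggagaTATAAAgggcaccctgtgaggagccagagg
Obp2b (chr2:25736937-25737006): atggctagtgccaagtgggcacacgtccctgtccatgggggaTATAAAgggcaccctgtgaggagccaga
Lcn3 (chr2:25765463-25765532): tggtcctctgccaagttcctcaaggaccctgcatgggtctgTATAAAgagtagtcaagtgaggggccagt
Lcn11 (chr2:25776947-25777016): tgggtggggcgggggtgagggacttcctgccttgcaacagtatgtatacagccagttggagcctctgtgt
Lcn4 (chr2:26671283-26671352): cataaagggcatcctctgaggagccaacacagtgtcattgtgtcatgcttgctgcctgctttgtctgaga
Obp1a (chrX:78091375-78091444): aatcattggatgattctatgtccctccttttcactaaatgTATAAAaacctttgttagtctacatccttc
Obp1b (chrX:78186707-78186776): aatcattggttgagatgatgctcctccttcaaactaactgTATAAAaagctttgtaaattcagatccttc

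TATAAA, searched on both strands, was present in the 100 bases before the RefSeq start of 6 of the 8 genes, all but Lcn4 and Lcn11, and in 5.56% of 32851 mouse promoters. The RefSeq start of Mup4 lies 43 bases inside the GENCODE gene, and the 70 bases before its most upstream start hold 0 matches. In the sequences shown TATAAA begins 28 to 30 bases before the start. Over the 250 bases before their starts, Obp2a and Obp2b were identical at 214 of 217 aligned positions (98.6%), whereas their longest transcripts were identical at 555 of 707 positions (78.5%). Obp1a and Obp1b were identical at 154 of 222 aligned promoter positions (69.4%) and at 571 of 748 transcript positions (76.3%). A match is a description of these letters and not a measured binding site.

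Transcript likeness also bears on the measurements, since reads that map to several places were left out of the deposited gene counts. Cut into words of 50 bases, the transcripts of Lcn3, Lcn4 and Lcn11 shared 0% of their words with other genes. Obp2a and Obp2b shared 11.7% and 11.9% with each other, Mup4 12.4% with other Mup genes and Obp1a 7.2% with Gm5938. Obp1b shared 73.5% with the X-linked gene Gm14743, so its counts rest on a small part of the transcript and its level is uncertain. TPM, an estimate of transcript abundance per length that apportions shared reads, is used below wherever levels are given or compared between genes.

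At birth the lipocalin transcripts were almost all Lcn11. In the 4 WT P0 libraries Lcn11 stood at 2343, 4041, 3552 and 5617 TPM, and Obp2a followed at 274, 298, 424 and 417 TPM. Obp2b was at 4.71, 3.07, 8.49 and 8.45 TPM and Lcn4 at 0 TPM in each. Lcn11 made up 88.6% to 92.8% of the summed TPM of the 8 genes in these libraries and 90.1% to 94.8% in the 4 Kir P0 libraries. By P21 the order had changed: Lcn11 made up 3.58% to 10.5% in WT and 0.635% to 8.54% in Kir, and Obp2a was at 5225, 4970 and 1890 TPM in WT. Obp2a had the highest TPM of the 8 genes in 16 of the 47 libraries and Lcn11 in 28, while Lcn3, Obp1a and Obp2b each had it in 1.

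**Figure D1:**
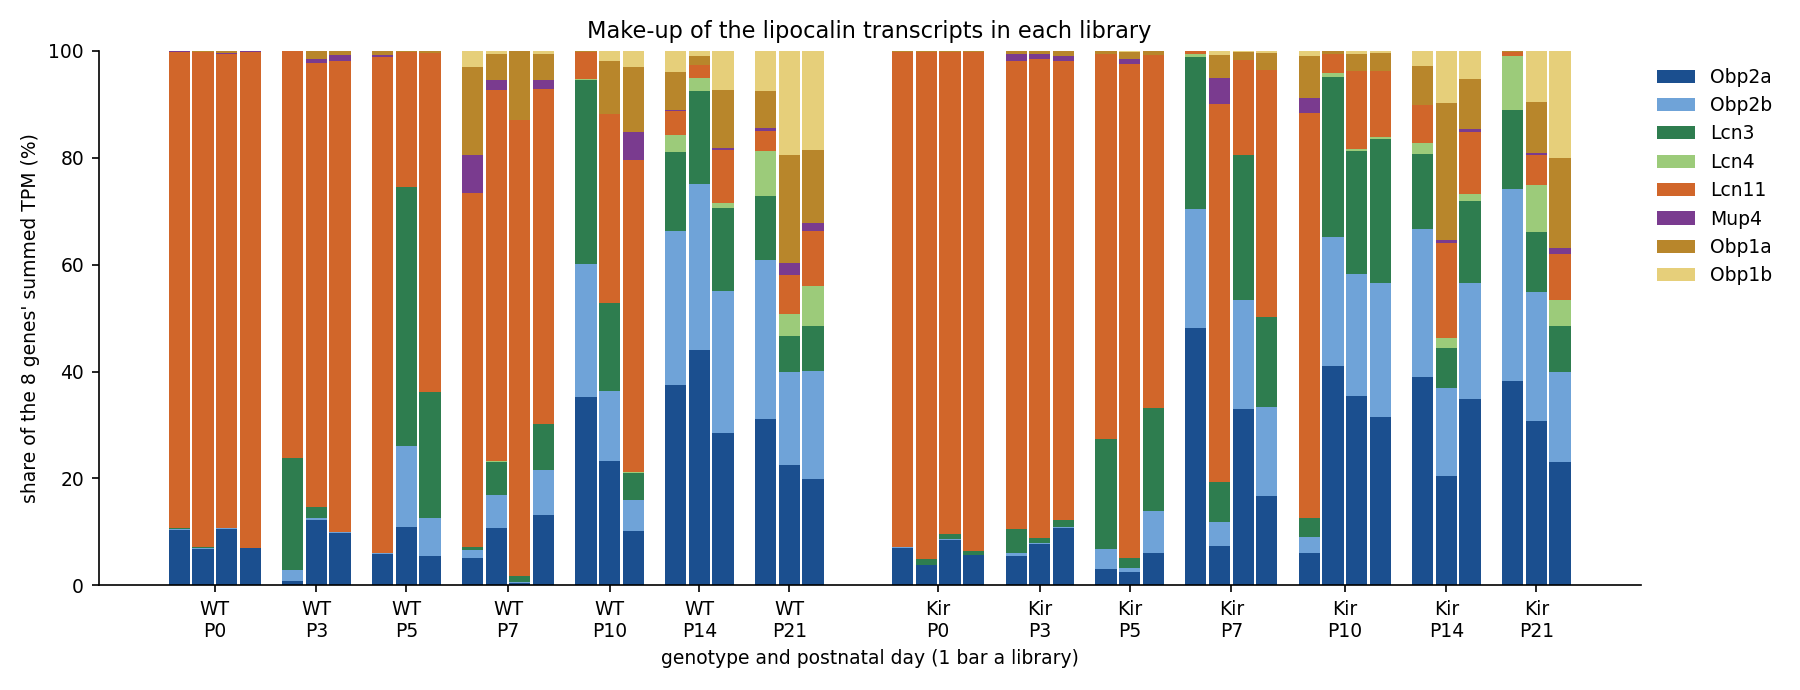
Share of the summed TPM of the 8 lipocalin genes (y axis, percent) held by each gene in each of the 47 libraries (1 bar a library, grouped by genotype and postnatal day). Lcn11 fills 88.6% to 94.8% of each P0 bar and at most 10.5% of each P21 bar.

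Summed over the 8 genes, lipocalins took 0.263% to 0.605% of all TPM in WT at P0 and 0.954% to 2.21% at P21. The corresponding shares in Kir were 0.140% to 0.602% and 0.297% to 2.01%, and the Kir ranges overlap. Between these ages the sum was lower in many libraries, at 0.0220%, 0.0299% and 0.151% in the 3 WT P5 libraries, below all WT P0 libraries. In bulk tissue, fewer cells of a type and less RNA per cell cannot be told apart.

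In WT 7 of the 8 genes, all but Lcn11, rose between P0 and P21 (edgeR quasi-likelihood test, adjusted p below 0.05), and none fell. Across all tested genes 24.0% were called higher and 26.8% lower in this comparison. The median log2 fold change was 8.15 for the 8 genes and -0.05 for all genes tested, and it stayed at 8.15 with Lcn4 set to its lower bound. In Kir 6 of 8 rose, against 22.9% of all genes (25.9% were lower), with a median of 6.54 and -0.04 for all genes. The genes that rose in both genotypes were Obp2b, Lcn3, Lcn4, Obp1a, Obp1b and Obp2a. The library ranges of P0 and P21 did not overlap for 8 of 8 genes in WT (7 higher, 1 lower at P21) and for 5 of 8 in Kir (all higher). Of all genes tested 23.9% lay wholly higher and 17.9% wholly lower in WT, and 20.9% and 18.5% in Kir.

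Obp2b, an odorant-binding protein gene, was low at birth and high at P21. It stood at 4.71, 3.07, 8.49 and 8.45 TPM in WT P0 and at 4997, 3843 and 1928 TPM in WT P21. In Kir it went from 5.56, 1.85, 5.51 and 4.39 TPM to 1066, 1823 and 3394 TPM. All P21 libraries lay far above all P0 libraries in both genotypes. The log2 fold change was 8.94 ± 1.23 in WT (SE; edgeR adjusted p = 2.48e-07) and 8.92 ± 1.24 in Kir (edgeR adjusted p = 3.29e-07).

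Obp2a, whose promoter is close to that of Obp2b, was already expressed at birth and rose less. Its Kir libraries held 426, 52.2, 364 and 219 TPM at P0 and 1136, 2309 and 4616 TPM at P21, with no overlap. Its log2 fold change was 3.33 ± 1.16 in WT (edgeR adjusted p = 0.0159) and 3.28 ± 1.15 in Kir (edgeR adjusted p = 0.0181). On log2(TPM + 1) with limma the changes were of like size, 3.40 and 3.47, but missed the threshold (adjusted p = 0.0630 and 0.0594), and the Kir call was lost without Kir P0 replicate 2 (edgeR adjusted p = 0.0514) or Kir P21 replicate 3 (edgeR adjusted p = 0.0814).

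The levels of Obp2a and Obp2b came close to each other with age. The ratio of Obp2a to Obp2b TPM within a library was 49.4 to 97.2 in WT and 28.2 to 76.6 in Kir at P0, and 0.980 to 1.29 in WT and 1.07 to 1.36 in Kir at P21. The change of the mean log2 ratio was -5.80 in WT and -5.40 in Kir, each with an exact permutation p of 0.0571 (two-sided, n = 3 and 4), the smallest that these group sizes can give; this test was chosen after the values were seen. In uniquely placed counts there were 7721 of Obp2a and 182 of Obp2b over the WT P0 libraries and 59627 and 68771 over the WT P21 libraries. All 8 P7 libraries had a ratio between 1.01 and 3.41, that of WT P7 replicate 3 from only 0.16 and 0.08 TPM. At P5, where Obp2a was at 5.32 to 88.6 TPM, the ratios were 36.0, 0.725 and 0.783 in WT. In Kir P5 they were 0.778, 3.39 and 0.761, so the ratio did not fall steadily with age. At P3 the WT ratios were 0.337, 32.6 and 46.5, the first in the library with only 2.90 TPM of Obp2a, and the Kir ratios were 8.51, 30.6 and 33.1.

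**Figure D2:**
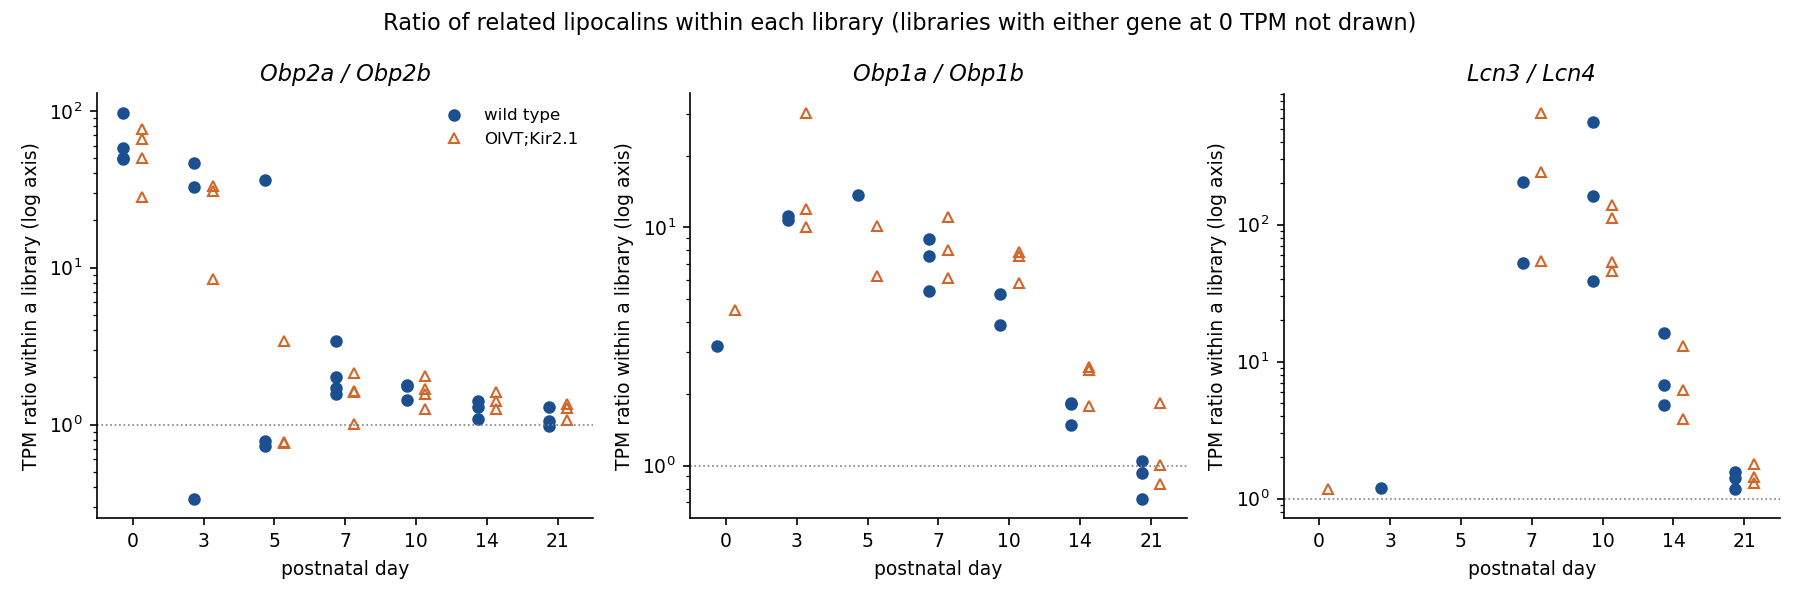
TPM ratio of 3 pairs of related lipocalins within each library (y axis, log scale) by postnatal day, for WT (filled circles) and Kir (open triangles); libraries with either gene at 0 TPM are not drawn. Obp2a to Obp2b falls from 28.2 to 97.2 at P0 to 0.980 to 1.36 at P21, and the other 2 pairs also end near 1.

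Lcn3 and Lcn4, the vomeronasal secretory proteins, came on at different ages. Lcn3 was at 4.72, 9.86, 0 and 0.72 TPM in WT P0 and at 2020, 1476 and 816 TPM in WT P21. It rose by a log2 fold change of 8.16 ± 1.50 in WT (edgeR adjusted p = 2.69e-05) and of 5.37 ± 1.28 in Kir (edgeR adjusted p = 0.000716), where it went from 0.28, 14.2, 38.5 and 30.8 TPM to 439, 849 and 1745 TPM. Its P0 and P21 ranges did not overlap in either genotype. By P3 it had reached 81.8, 81.8 and 0.19 TPM in WT and 173, 54.4 and 67.1 TPM in Kir.

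Lcn4 was the last of the 8 genes to appear. It had 0 counts in the 4 WT P0 libraries and 17807 over the 3 WT P21 libraries, at least 7459-fold higher after scaling to library size, with a floor of 3 counts over the group. In Kir it had 1 count at P0 and 11031 at P21, a ratio of 15127 with a 95% counting interval of 2714 to 597549. At P5 it was at 0 TPM in all 6 libraries and at P7 at 0 to 14.9 TPM. At P14 it had reached 117, 123 and 30.7 TPM in WT and 36.2, 76.9 and 78.1 TPM in Kir, and at P21 1419, 940 and 700 TPM in WT and 305, 655 and 974 TPM in Kir. The ratio of Lcn3 to Lcn4 TPM accordingly fell. In WT it was 38.6 to 561 at P10, 4.83 to 16.2 at P14 and 1.17 to 1.57 at P21. In Kir it was 45.5 to 138, 3.80 to 12.9 and 1.30 to 1.79. The libraries of P10 and P14 also differ in the prefix of their titles (cry6 and cry4), which cannot be told apart from age there. Counting intervals cover counting error only.

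Obp1a and Obp1b, the X-linked pair, also came to similar levels by P21. Obp1a was at 2.63, 9.29, 13.9 and 4.05 TPM in WT P0 and at 1165, 4476 and 1292 TPM in WT P21, a log2 fold change of 8.15 ± 1.97 (edgeR adjusted p = 0.000797). Obp1b was at 0, 0, 4.37 and 0 TPM in WT P0 and at 1253, 4293 and 1776 TPM in WT P21; its 3 counts at P0 against 11167 at P21 gave a ratio of 4678 (95% counting interval 1600 to 22687). All 3 of those counts were in WT P0 replicate 3, the library whose stage label gives P3, and without it the fitted log2 change went from 12.05 to 15.40, a value that depends on the prior count because the group is then at 0. The WT ranges did not overlap for either gene. In Kir P21 replicate 1 the pair stood at 4.79 and 2.62 TPM, inside or near the P0 range, while the other 2 Kir P21 libraries held 721 and 3371 TPM of Obp1a and 716 and 4027 TPM of Obp1b. With that library in the fit the log2 fold change in Kir was 7.70 ± 1.95 for Obp1a (edgeR adjusted p = 0.00133) and 10.93 ± 2.06 for Obp1b (edgeR adjusted p = 4.02e-05), and without it 8.29 for Obp1a. The 4 Obp1b counts at Kir P0 were all in replicate 3, without which the fitted change was 14.59, again against a group at 0. Without Kir P21 replicate 3, the library highest in both, the changes were 5.79 and 9.07 and were still called, as was that of Lcn3 at 4.64. The Kir call for Obp1a was lost with limma on log2(TPM + 0.1) (adjusted p = 0.0517). The ratio of Obp1a to Obp1b TPM was 10.8 and 11.2 in the 2 WT P3 libraries with both genes, 5.42 to 8.95 in the 3 WT P7 libraries with both genes, 1.48 to 1.84 at WT P14 and 0.727 to 1.04 at WT P21. Since Obp1b is hard to tell from Gm14743, the size of this ratio is uncertain.

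Mup4 was low at birth, at 3.03, 3.73, 4.47 and 4.98 TPM in WT and 9.66, 1.02, 3.22 and 1.89 TPM in Kir. At P21 it stood at 115, 490 and 139 TPM in WT and at 1.28, 28.3 and 230 TPM in Kir. The WT ranges did not overlap and the log2 fold change was 5.78 ± 2.22 (edgeR adjusted p = 0.0291). The call was lost without any 1 of the 4 WT P0 libraries or without WT P21 replicate 2. It was also lost with WT P0 replicate 3 placed at P3 (edgeR adjusted p = 0.0572) and with limma on log2(TPM + 0.1) (limma adjusted p = 0.133). In Kir the ranges overlapped and the log2 fold change of 4.32 ± 2.15 did not pass (edgeR adjusted p = 0.0955); in the libraries of prefix cry4 alone it was 4.35 and passed (edgeR adjusted p = 0.00451).

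Lcn11, the most abundant of the genes at birth, was not called in either direction. Its WT P21 libraries, at 602, 1615 and 997 TPM, all lay below the WT P0 libraries, and its Kir P21 libraries, at 18.9, 430 and 1715 TPM, overlapped the Kir P0 libraries at 5570, 1331, 3836 and 3657 TPM. The log2 fold change was -2.03 ± 1.61 in WT (edgeR adjusted p = 0.301) and -2.44 ± 1.64 in Kir (edgeR adjusted p = 0.224), neither past the threshold. The 95% intervals were -5.19 to 1.12 in WT and -5.66 to 0.78 in Kir. With the P0, P3, P14 and P21 libraries alone (title prefix cry4, with the P7 libraries of that prefix), the Kir change was -2.41 and passed (edgeR adjusted p = 0.0434).

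**Figure D3:**
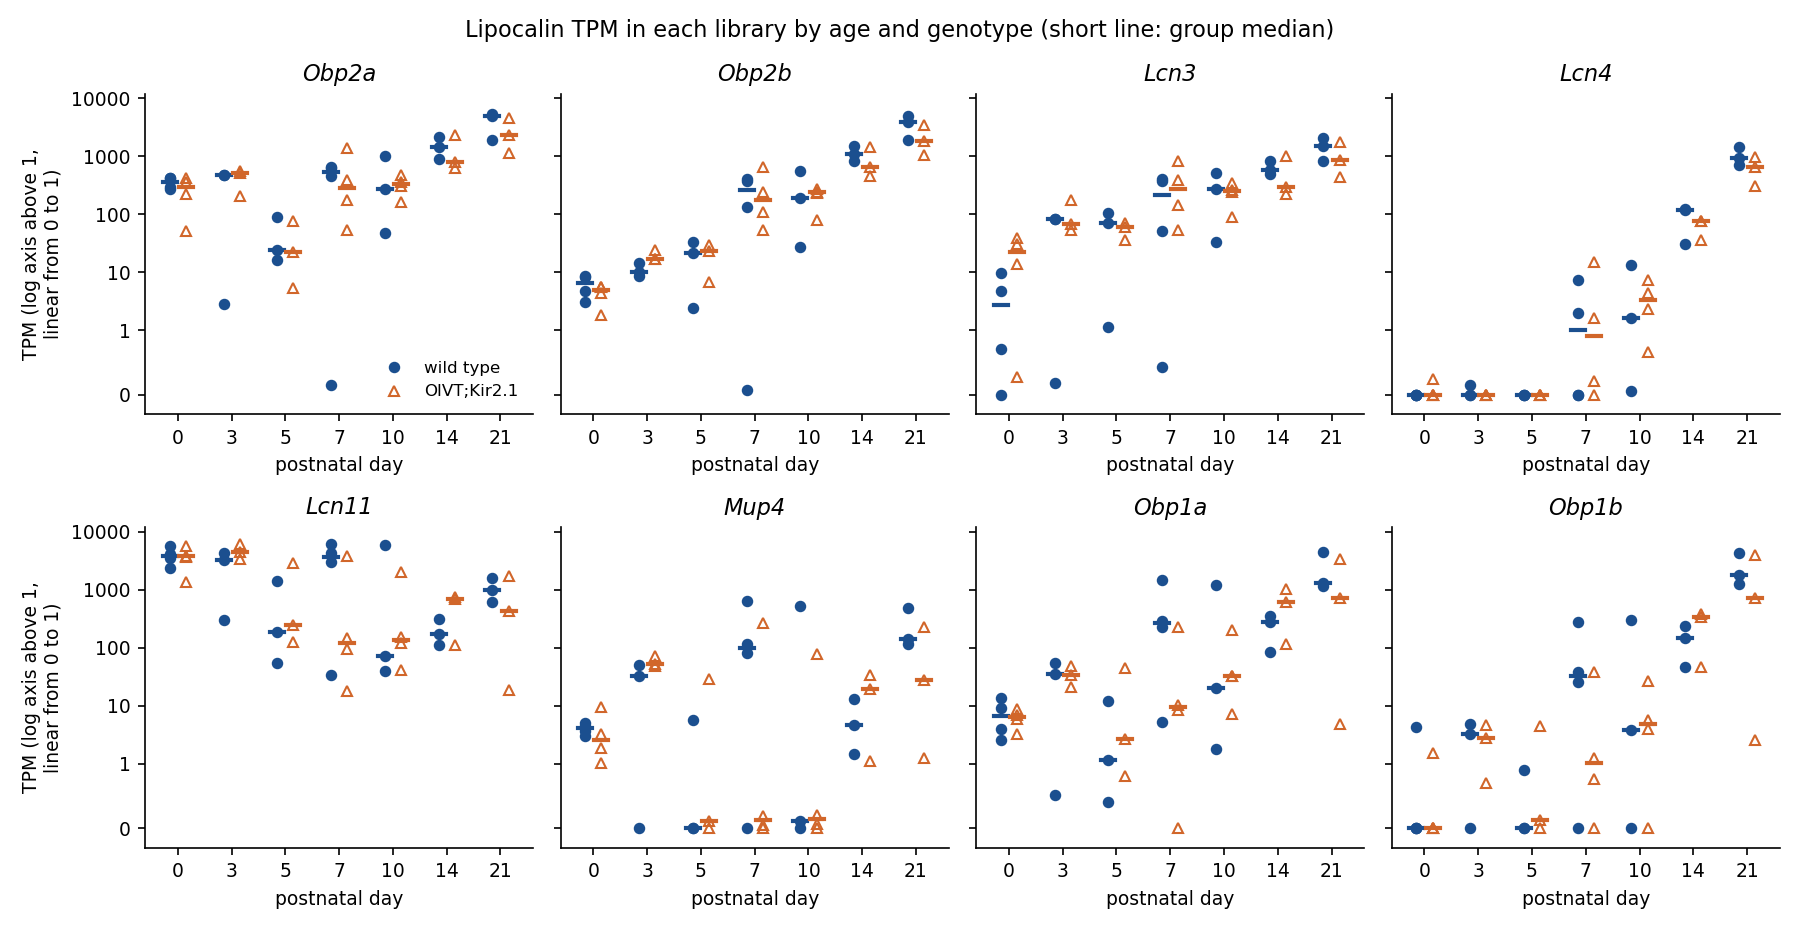
TPM of each lipocalin gene (y axis, log scale above 1 and linear from 0 to 1) in each of the 47 libraries by postnatal day, for WT (filled circles) and Kir (open triangles), with a short line at the group median. Lcn4 is at or near 0 TPM to P5 and at 305 to 1419 TPM at P21, whereas Lcn11 starts at 1331 to 5617 TPM.

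Neither a step from P0 to P3 nor one from P14 to P21 was called for any of the 8 genes in either genotype by the main edgeR fit. In the cry4 libraries alone edgeR called 1 gene in WT and 2 in Kir from P0 to P3, and 1 in each from P14 to P21. With no filter on low counts it called 1 in WT from P0 to P3, and 1 in each genotype from P14 to P21. From P0 to P3 1 gene in WT (Lcn3) and 1 in Kir (Obp2b) had an unadjusted p below 0.05, with 20.5% and 17.8% of all genes called in either direction (8.61% and 7.85% higher), and DESeq2 called 1 gene in WT and 0 in Kir. From P14 to P21 all 8 fitted changes were above 0 in both genotypes, 3 genes in WT and 1 in Kir had an unadjusted p below 0.05, and DESeq2 called 0 in each. Among all genes 0.0452% were called in WT and 0.472% in Kir (0.115% higher). In WT the P21 libraries lay above all P14 libraries for 6 of the 8 genes, all but Lcn3 and Obp2a, against 3.26% of all genes tested whose ranges lay apart in that direction, and edgeR called 0% of all genes higher. In Kir they did so for 1 of 8, against 4.00%. Lcn4 had the lowest adjusted p there, with a log2 fold change of 3.57 ± 0.90 in WT (edgeR adjusted p = 0.299) and 3.39 ± 0.89 in Kir (edgeR adjusted p = 0.0993).

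From P3 to P14 3 of 8 genes were called higher in WT, where 12.9% of all genes were (22.6% in either direction), and 3 of 8 in Kir, where 12.9% also were (25.6%). In both genotypes they were Lcn4, Obp1b and Obp2b. Obp2b rose by a log2 fold change of 6.62 ± 1.27 in WT (edgeR adjusted p = 0.000218) and 5.40 ± 1.19 in Kir (edgeR adjusted p = 0.000989), from 8.60 to 14.7 TPM at WT P3 to 839 to 1498 TPM at WT P14. Obp1b rose by 5.75 ± 1.98 in WT (edgeR adjusted p = 0.0330) and 5.99 ± 1.89 in Kir (edgeR adjusted p = 0.0182). Lcn4 went from 1 to 1427 counts in WT, a ratio of 1449 (95% counting interval 260 to 57259), and in Kir from 0 to 976 counts, at least 348-fold higher. Lcn3 did not pass in WT, at 3.47 ± 1.32 (edgeR adjusted p = 0.0538).

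Several genes had low values at P5. There Lcn11 stood at 1395, 55.5 and 190 TPM in WT and at 128, 2876 and 244 TPM in Kir, and Obp2a at 88.6, 24.1 and 16.6 TPM and at 5.32, 77.7 and 22.3 TPM. In Kir all P5 libraries lay below all P3 libraries for Lcn11, Obp2a and Mup4, a pattern that 21.8% of all genes tested showed. In WT the ranges of these ages overlapped for all 8 genes, while 14.1% of all genes lay wholly higher and 22.3% wholly lower at P5; the change between P3 and P5 coincides with a change of title prefix, and the 2 cannot be told apart. At P10 Obp2b stood at 194, 26.9 and 566 TPM in WT and at 79.0, 277, 235 and 242 TPM in Kir. By P14 Obp2b had reached 1099, 1498 and 839 TPM in WT and 449.5, 646 and 1416 TPM in Kir. These lay above all P10 libraries of the same genotype, as did 30.2% of all genes tested in WT and 14.5% in Kir. All P10 libraries carry the title prefix cry6 and all P14 libraries cry4, so age and prefix cannot be told apart in this step either. Obp1a stood at 273, 84.3 and 346 TPM at WT P14 and at 118, 1008 and 613 TPM at Kir P14, overlapping P10 in both.

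All P5 and P10 libraries carry 1 title prefix, cry6, which the libraries of P0, P3, P14 and P21 do not, so a change between P5 and P10 does not rest on the prefix. From P5 to P10 all 8 WT values were above 0 and 6 had an unadjusted p below 0.05, but 0 of 8 passed edgeR's adjusted threshold, where 0.607% of all genes were called higher and 1.93% in either direction; the lowest adjusted p was 0.0554, for Obp2b at 3.89 ± 1.10. In Kir Obp2b was the 1 gene called, at 3.44 ± 1.05 (edgeR adjusted p = 0.0335), against 5.28% of all genes (8.76% in either direction). DESeq2 called 4 genes in WT and 2 in Kir. The Kir call was lost without the 2 P10 libraries with the most unmapped reads, a choice made after seeing the data, and without Kir P10 replicate 2 or any 1 of the 3 Kir P5 libraries.

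**Figure D4:**
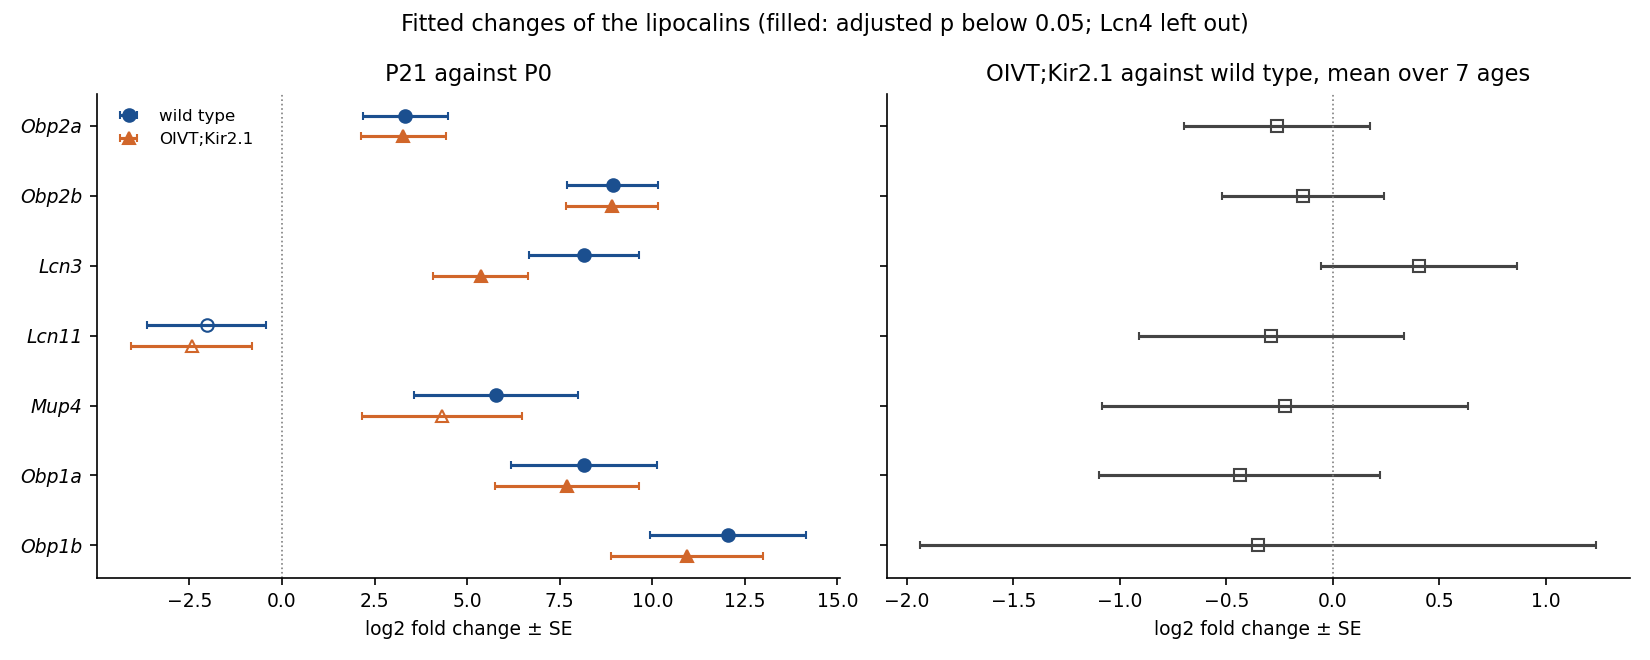
Fitted log2 fold changes with SE (x axes) for 7 of the 8 genes, Lcn4 left out because a group is at 0 counts. Left, P21 against P0 in WT (circles) and Kir (triangles), filled where the adjusted p was below 0.05; right, Kir against WT averaged over 7 ages, where each value lies between -0.44 and 0.40 and none passed.

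No difference between Kir and WT was called for any of the 8 genes. Averaged over the 7 ages, 0 of 8 passed in edgeR, where 10.5% of all genes were called (3.12% higher and 7.43% lower in Kir), and 0 had an unadjusted p below 0.05. Obp2b differed by a log2 fold change of -0.14 ± 0.38 (95% interval -0.88 to 0.61) and Obp2a by -0.26 ± 0.44 (-1.12 to 0.59). Lcn3 differed by 0.40 ± 0.46 (-0.50 to 1.31), Lcn11 by -0.29 ± 0.62 (-1.50 to 0.93), Obp1a by -0.44 ± 0.66 (-1.73 to 0.85) and Mup4 by -0.22 ± 0.86 (-1.91 to 1.46). Obp1b differed by -0.35 ± 1.59 (-3.46 to 2.76). The average of Lcn4 could not be fitted because several groups are at 0 counts. The sign of the average for Lcn11, Obp1a, Obp1b, Obp2a, Obp2b and Mup4 turned in at least 1 fit that left out 1 library, while that of Lcn3 did not.

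Within single ages 0 of 8 genes were called between Kir and WT by edgeR or DESeq2. Lcn4 could not be called at P0, P3 or P5, where each group held 0 or 1 counts of it. The shares of all genes called by edgeR were 1.09% at P0, 0.703% at P3, 0.105% at P5, 0.0903% at P7, 3.13% at P10, 1.17% at P14 and 0.743% at P21. An unadjusted p below 0.05 occurred for 1 gene, Obp1b at P10 (log2 fold change -3.31, 95% interval -5.93 to -0.68). The fitted differences were below 0 for 8 of 8 genes at P10 and at P21 and for 7 at P7. They were above 0 for 7 genes at P3, 5 at P5 and 4 at P0 and at P14. These genes vary together, so the signs are not independent. The intervals are wide: at P21 Obp2b differed by -0.62 (-2.53 to 1.28) and Mup4 by -1.38 (-5.17 to 2.41). At P3 the Kir libraries of 1 gene, Obp2b, lay above all WT libraries (17.0 to 24.2 TPM against 8.60 to 14.7 TPM), where 5.30% of all genes tested lay wholly higher in Kir, and in all other cases the library ranges of the genotypes overlapped. No difference between the genotypes in the change from P0 to P21 was called for any of the 8 genes (edgeR interaction, adjusted p 0.846 or above for each). Of all genes 0.286% were called. The 8 fitted values were all below 0. That of Lcn4 rests on 0 counts at WT P0, so its lack of a call is not informative. DESeq2 called 0 of 8 in that test, and 0 had an unadjusted p below 0.05. The log2 ratio of Obp2a to Obp2b differed by -0.24 at P0 (exact permutation p = 0.629, n = 4 and 4, smallest possible 0.0286) and by 0.16 at P21 (exact permutation p = 0.400, n = 3 and 3, smallest possible 0.10).

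Beside age, the libraries of a group differed widely, and not in the same order for every gene. At P7 the WT libraries held 5997, 4223, 33.9 and 2986 TPM of Lcn11, 1497, 294, 5.18 and 232 TPM of Obp1a, and 644, 114, 0 and 81.3 TPM of Mup4. At P10 WT replicates 1 and 2 held 39.7 and 72.2 TPM of Lcn11 and 0.11 and 0 TPM of Mup4, and replicate 3 held 5766 and 529 TPM. In Kir P7 the Lcn11 libraries were at 18.3, 3785, 94.1 and 148 TPM and those of Mup4 at 0, 266, 0.06 and 0.19 TPM. In these groups Lcn11, Obp1a and Mup4 were high together in some libraries and low together in the others.

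Lcn3 and Obp2b did not follow that order, and Obp2a lay between. Kir P7 replicate 1 had the lowest Lcn11 of all 47 libraries, at 18.3 TPM, with 0 TPM of Obp1a, and yet the highest Lcn3 (812 TPM), Obp2a (1375 TPM) and Obp2b (641 TPM) of its group. Kir P21 replicate 1 held 18.9 TPM of Lcn11 and 4.79 TPM of Obp1a beside 1136 TPM of Obp2a and 1066 TPM of Obp2b. Conversely WT P3 replicate 3 held 4203 TPM of Lcn11 and 0.19 TPM of Lcn3. WT P7 replicate 3 was low in these genes too, at 0.43 TPM of Lcn3, 0.16 TPM of Obp2a and 0.08 TPM of Obp2b.

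Over all 14 groups the library with the most Lcn11 was also the one with the most Mup4 in 14, with the most Obp1a in 10, with the most Obp2a in 6, with the most Obp2b in 4 and with the most Lcn3 in 3. The library with the least Lcn11 was the one with the least Obp1a in 14 groups, with the least Obp2a in 8 and with the least Lcn3 in 4. Lcn4 matched in 9 groups for the most and 9 for the least, where 4 groups all at 0 count as matches. With 3 or 4 libraries a group some matches come by chance, and how many was not worked out. Omp matched in 3 and 0 groups, but it is 1 gene and not a measure of chance. As a description of likeness, log2 CPM with the group means taken off correlated over the 47 libraries at r = 0.96 for Lcn11 and Obp1a, 0.95 for Lcn11 and Mup4, 0.92 for Obp1a and Obp1b and 0.88 for Lcn11 and Obp1b. For Obp2a it was 0.81 with Obp2b, 0.65 with Mup4, 0.61 with Lcn11 and 0.38 with Lcn3. It was 0.71 for Lcn3 and Obp2b, 0.66 for Lcn4 and Obp2b, 0.43 for Lcn11 and Obp2b and 0.15 for Lcn3 and Lcn11. These points share libraries and depths. Lcn11 lies beside Lcn3 on chromosome 2, and the 3 of the 8 genes closest to it by this measure lie on chromosomes X and 4.

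**Figure D5:**
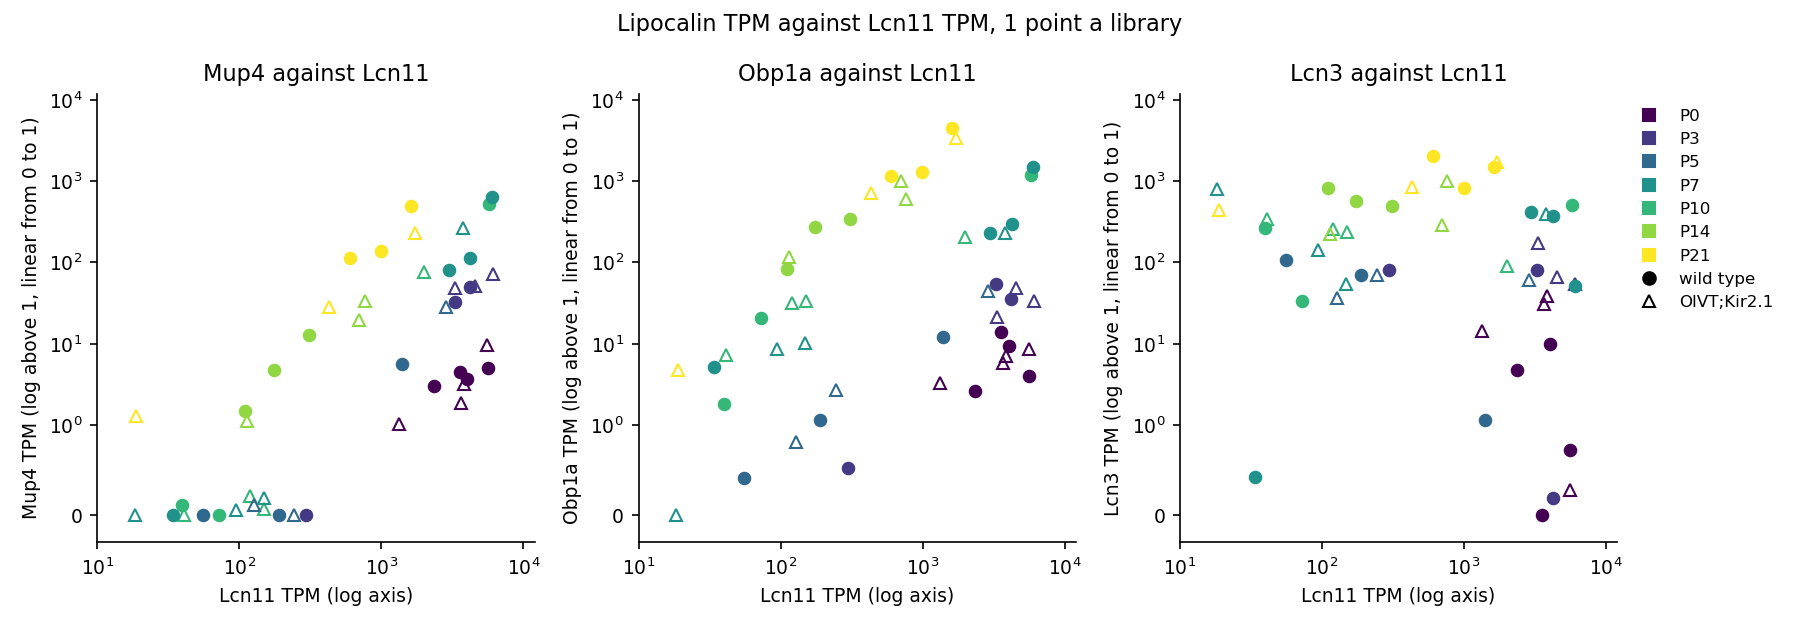
TPM of Mup4, Obp1a and Lcn3 (y axes, log scale above 1) against TPM of Lcn11 (x axes, log scale) in the 47 libraries, coloured by postnatal day, for WT (filled circles) and Kir (open triangles). At most ages Mup4 and Obp1a climb with Lcn11, whereas Lcn3 shows no such order (within-group r of 0.95, 0.96 and 0.15).

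The spread sets the precision of every comparison above. Among groups with no library at 0 TPM, the highest library exceeded the lowest by 10 times or more in 8 of 14 groups for Lcn11, in 7 for Obp1a, in 6 for Lcn3, in 5 for Obp2a, in 4 for Obp2b, in 2 for Lcn4 and for Mup4 and in 1 for Obp1b. A library at 0 TPM stood beside one above 0 in a further 9 groups for Obp1b, 7 for Mup4, 4 for Lcn4 and 1 each for Lcn3 and Obp1a. For Obp2b the ratio of highest to lowest ran from 1.42 at Kir P3 to 5005 at WT P7. Ordered by group mean TPM, the ranges of neighbouring groups overlapped in 13 of 13 neighbours for 6 of the genes and in 11 of 13 for Lcn4 and Obp2b. A fit with a term for the Ddx3y and Xist classes, added after seeing the data, called the same number of members in the P21 against P0 comparisons, 7 in WT and 6 in Kir, and 0 between genotypes.

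Genes with the most similar pattern were then named. By the rule of likeness to the mean of the 8 genes after removal of group means, the 10 closest genes were Apol10a (r = 0.92), Klk1, Mup5, 5430402E10Rik, Car6, Scgb1b27, BC051076, Enpp3, Gm14744 and Pnliprp1 (r = 0.85). Without that removal the closest genes included 5430402E10Rik (r = 0.93), Gm14743, Gm14750, Ces1f, Dmbt1, Tspan8, Gm14744, Adh1 and Azgp1 (r = 0.81), each over 47 libraries. Gm14744, 5430402E10Rik and Gm14743 are X-linked like Obp1a and Obp1b, and RefSeq lists odorant-binding protein names among the synonyms of the first 2. Obp1b, part of the mean, shares 73.5% of its words with Gm14743, and the part of this in the likeness was not tested. Car6 encodes a secreted carbonic anhydrase of gland fluids. At WT P7 Gm14744 stood at 7793, 2523, 12.7 and 2383 TPM, with the libraries in the same order as for Lcn11.

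Of 27 further lipocalin family genes that were found, 11 passed the filter. From P0 to P21 in WT 5 were called higher and 2 lower (median log2 fold change 0.50, against -0.05 for all genes), and in Kir 4 higher and 2 lower. Of all tested genes 24.0% were higher and 26.8% lower in WT, and 22.9% and 25.9% in Kir. The largest rises were those of X-linked genes. 5430402E10Rik went from a mean of 1.63 to 2629 TPM (log2 fold change 11.05 ± 2.53, edgeR adjusted p = 0.000445). Gm14743 went from 0.628 to 881 TPM (10.72 ± 1.98, edgeR adjusted p = 2.94e-05). Since Obp1b shares 73.5% of its words with Gm14743, the level of Gm14743 is uncertain too. Mup5, a relative of Mup4, rose by 5.01 ± 1.62 (edgeR adjusted p = 0.0100), whereas Lcn2, an iron-siderophore carrier of the immune response, fell by 2.59 ± 0.57 on the log2 scale (edgeR adjusted p = 0.000314).

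Products of nasal and Bowman glands, a list of 37 genes, moved in both directions. Of 33 tested, 13 were higher and 8 lower at P21 than at P0 in WT, with a median log2 fold change of -0.32. Across all tested genes 24.0% were higher and 26.8% lower, so the lower calls were about as frequent as among all genes. Scgb1c1, a secretoglobin, rose by 4.56 ± 0.19 (edgeR adjusted p = 2.89e-19), and Car6 fell by 3.88 ± 1.47 (edgeR adjusted p = 0.0269). Within groups, the library with the most Lcn11 also had the most Car6 in 10 of 14 groups and the highest summed list in 9, and the most Scgb1c1 in 3. At WT P7 the list summed to 80450, 96224, 24378 and 20792 TPM and Bpifb9b alone, a secreted BPI-fold protein, to 39619, 49903, 7376 and 2812 TPM. The part of gland content in the dissected tissue in these results was not tested.

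Since Lcn3 and Lcn4 are named for the vomeronasal organ, its markers were read in the same libraries. The summed TPM of 28 vomeronasal genes was 283 to 607 over the 47 libraries, 314 to 459 in WT at P0 and 339 to 406 in WT at P21, and most of it was Gnao1 and Gnai2, G protein genes that other neurons also express. Trpc2, the channel of vomeronasal transduction, was at 0.900 to 9.85 TPM over the 47 libraries, with a mean of 3.41 TPM at WT P0 and 3.10 TPM at WT P21. The 19 receptor genes of the list had means of 0 to 0.210 TPM at WT P21 and 0 to 0.453 TPM at Kir P21, the highest being Vmn2r2, which reached 3.72 TPM in 1 library. They were at 0 TPM in 0 to 44 of the 47 libraries. Of 11 vomeronasal genes tested, 2 rose and 1 fell in WT from P0 to P21, and 2 rose and 7 fell in Kir. Across all tested genes 24.0% rose and 26.8% fell in WT, and 22.9% and 25.9% in Kir. The library with the most Lcn11 had the highest vomeronasal sum in 3 of 14 groups. The part of vomeronasal tissue in the Lcn3 and Lcn4 values was not tested.

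Markers of other cell types were read over the same ages. Among all tested genes 24.0% were called higher and 26.8% lower in WT from P0 to P21, and 22.9% and 25.9% in Kir. The 3 of 12 respiratory epithelium markers called higher in WT are near that share. Of 18 markers of mature olfactory sensory neurons 18 rose in WT (median 1.96), of 17 sustentacular cell markers 13 rose and 3 fell (median 1.05), and of 12 respiratory epithelium markers 3 rose and 6 fell (median -0.85). Of 25 odorant-clearing and mucus enzymes 18 rose and 2 fell (median 1.16), and of 11 brain neuron genes 3 rose and 7 fell (median -2.04). In Kir 3 of those brain genes rose and 3 fell (median -0.03), and their summed level was 419 TPM in WT P0 replicate 1 against 103 to 154 TPM in the other 3 WT P0 libraries. Between Kir and WT 16 of 18 mature neuron markers were lower in Kir over the average of ages (median -0.41), against 7.43% of all genes. For the lipocalins 0 of 8 were called, and Lcn4 could not be fitted. The 95% interval of each fitted lipocalin includes -0.41, so a shift of that size cannot be told from none. The part of these shifts in the lipocalin values was not tested.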

How the data were processed

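Polyadenylated RNA of dissected olfactory epithelium was extracted in TRIzol and made into libraries with an Illumina mRNA-Seq kit, per the labels' protocols. The submitters' processing notes name bcl2fastq 2.18, STAR 2.6.1c, RSEM and the build mm10. The authors deposited 1 table of raw counts per gene, in which multiply mapped reads are kept apart from genes, and 1 table of TPM from RSEM, which apportions them. No source used here states the strand setting. Lines of the count table that name no gene were left out: 2.91% to 3.80% of reads were ambiguous, 5.17% to 20.6% multiply mapped, 3.79% to 12.3% without a feature and 1.31% to 33.5% unmapped. There were 0 columns without a sample.

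Counts of all 47 libraries entered 1 edgeR 4.0.16 quasi-likelihood fit in R 4.3.3 (TMM scaling, filterByExpr, 14 groups, a term for the 3 title prefixes, whose meaning the labels do not give), with two-sided tests and Benjamini-Hochberg adjustment over 19927 genes and a threshold of 0.05. The fit was tested on simulated counts. Alternatives used DESeq2 1.42.0 and limma 3.58.1, other filters and scalings, and left-out libraries. The SE of a log2 fold change is its absolute value over the square root of the test's F statistic. The 95% intervals take that SE with a normal quantile, so they are approximate and can be narrower than the test implies. That of Mup4 in Kir P21 against P0, 0.098 to 8.54, leaves out 0 at an unadjusted edgeR p of 0.0526. Likeness is Pearson's r of log2 CPM (prior count 2). Named genes are the members, then the 10 most like their mean, and members of fixed lists past the threshold. A gene of the likeness ranking is not reported here. The members and lists were chosen with earlier results of these data known.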

Additional observations from a re-analysis of the deposited data

Results flagged for a closer look

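Each gene and the summed TPM were tested in the groups of 4 libraries, 44 sets of values from the same libraries. In 13 sets the gap of the highest library to the next exceeded Dixon's 95% critical share of the group's range. Chance gives about 1 in 20 only for normally distributed values, which was not tested for these TPM values. In Kir P7 replicate 2 stood above the other 3 libraries in Lcn11 (3785.24 TPM), Obp1a (230.69 TPM), Obp1b (37.68 TPM) and Mup4 (265.87 TPM). In Kir P10 replicate 1 did so in Lcn11 (1999.27 TPM), Obp1a (204.65 TPM) and Mup4 (76.84 TPM), and in the summed TPM of the 8 genes (2638.84). These genes vary together, so the flags are not independent. Lcn4 was highest by that measure in Kir P7 replicate 1 (14.86 TPM). Obp1b was so in WT P7 replicate 1 (276.25 TPM). Single low values beside 0 TPM in the other 3 libraries were those of Obp1b in WT P0 replicate 3 (4.37 TPM) and Kir P0 replicate 3 (1.56 TPM), and of Lcn4 in Kir P0 replicate 1 (0.24 TPM).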

How the results depend on the processing

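The members called in P21 against P0 stayed at 7 in WT and 6 in Kir with DESeq2, and at 6 to 7 and 5 to 6 when 1 library was left out. No alternative called a member between genotypes. Other counts moved, and the cause was not tested. Genes whose change differed between genotypes numbered 57, then 91 with no filter, 112 with DESeq2, 18 with no prefix term, 34 with a Ddx3y and Xist term, 111 without the 5 Kir libraries lowest in Kcnj2, and 28 to 65 without 1 library. Genes called over the average of ages numbered 2101, then 1369, 1305 and 1172 with limma on log2(TPM + 1), log2(TPM + 0.1) and log2(TPM + 1) with no filter. In cry4 or cry6 libraries alone they numbered 515 and 568. Those averages cover fewer libraries and only the ages of the prefix. These are P0, P3, P7, P14 and P21 for cry4, and P5, P7 and P10 for cry6. Kir P21 against P0 went from 4572 genes higher and 5168 lower to 5629 in all without the 5 libraries lowest in Kcnj2. That leaves 1 Kir P21 library, replicate 3, assumed to vary like the other groups, so neither 5629 and 111 nor the 6 members still called there bear on stability.

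Members called moved as follows: WT P3 against P0 from 0 to 1 with no filter, DESeq2 or cry4 alone (0 to 1 without 1 library); WT P14 against P3 from 3 to 5 with DESeq2 or cry4 alone (2 to 3); WT P21 against P14 from 0 to 1 with no filter, limma with no filter or cry4 alone; WT P10 against P5 from 0 to 4 with no filter or DESeq2 (0 to 1). In Kir, P3 against P0 went from 0 to 2 and P14 against P3 from 3 to 5 in cry4 alone (2 to 3), and P21 against P14 from 0 to 1 with no filter or cry4 alone. Kir P10 against P5 went from 1 to 2 with no filter or DESeq2 and to 0 with limma on log2(TPM + 1), filtered or not, in cry6 alone, or without the 2 P10 libraries with most unmapped reads (0 to 1).

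Averages between genotypes, none called, changed sign. Those in cry4 or cry6 alone cover only the ages of that prefix. Obp2a became 0.16 and 0.25 with limma (pseudocounts 1, filtered or not, and 0.1) and 0.19 in cry4 alone; Obp2b 0.15, 0.25 and 0.33. Mup4 became 0.11 in cry6 alone and Obp1b 0.14 with WT P0 replicate 3 placed at P3. Without the 5 Kir libraries lowest in Kcnj2, Lcn11 was 0.28, Obp1a 0.058, Obp1b 0.024, Obp2b 0.0057 and Mup4 0.43. Without 1 library they ran from -0.67 to 0.47 for Lcn11, -0.89 to 0.33 for Obp1a, -1.18 to 0.48 for Obp1b, -0.44 to 0.035 for Obp2a, -0.25 to 0.21 for Obp2b and -1.39 to 1.50 for Mup4; the upper ends came without WT P10 replicate 3 or, for Obp2a and Obp2b, WT P7 replicate 2, and the lower ends without Kir P7 replicate 2 (Lcn11, Obp1b, Mup4), Kir P5 replicate 2 (Obp1a, Obp2a) or WT P7 replicate 1 (Obp2b).

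Same-numbered libraries did not pair over all ages: of 13 pairs 4 correlated above 0.1 (-0.192 to 0.304), namely 1 of P0 and all 3 of P3 (0.172, 0.210 and 0.286), and these 4 correlated best with their own number. With the replicate block, fitted to P0, P3, P14 and P21 only, 839 genes were called over the average of those ages and Lcn11 averaged 0.15. Members called were 1 in WT P3 against P0, 6 in WT P14 against P3, 1 in Kir P3 against P0, 5 in Kir P14 against P3 and 1 in Kir P21 against P14. In Kir P21 against P0 the block called Lcn11 at -3.19 (edgeR adjusted p = 0.0113) and Mup4 at 3.27 (edgeR adjusted p = 0.0356), neither called without it. For age comparisons the block joins libraries of the same number across ages and genotypes, which no label links. The correlations above compare genotypes within an age only. No conclusion is therefore drawn from the block's calls between ages.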
